A study of Mus musculus with 2 samples.

Results

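The immunoproteasome and peptide-loading genes turn intracellular protein into peptides for major histocompatibility complex (MHC) class I. Here 10 of them, chosen by symbol from the 32544 genes of the count tables, were followed in RANKL-induced cultures of mouse bone marrow with and without Arid1a in the myeloid lineage. They were the catalytic subunits Psmb8, Psmb9 and Psmb10, the PA28 activator subunits Psme1 and Psme2, the transporter and loading genes Tap1, Tap2 and Tapbp, the trimming peptidase Erap1 and the transactivator Nlrc5. All 10 were found in both libraries, none under a repeated symbol, and the constitutive catalytic subunits Psmb5, Psmb6 and Psmb7 served as reference. The study asked how the chromatin remodeler ARID1A acts while myeloid progenitors become osteoclasts (OCs), the bone-resorbing cells. Both libraries held bone marrow-derived monocytes from mice of 4 to 6 weeks, induced with RANKL at 100 ng/ml beside M-CSF at 50 ng/ml and collected 24 h later. The control library carries the genotype CONTROL in the labels with no further allele given, and the mutant library is LysM-Cre;Arid1afl/fl, in which Cre under the lysozyme M promoter removes floxed exons 5 and 6 of Arid1a in myeloid cells. Each group was a single library, so no difference between genotypes could be tested, and every interval given here covers counting error only.

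Cells with at least 500 detected genes and at most 10% mitochondrial UMIs (unique molecular identifiers, each a counted transcript) were kept. They were 6269 of 6455 barcodes in the control library and 5663 of 5865 in the mutant, with a median of 23978 and 21734 UMIs per cell, and 8 barcodes occurred in both. The monocytic markers Lgmn, Dab2, Csf1r and BC005537 were present in both libraries and 4 of 4 were higher in the mutant, with summed levels of 883 and 1651 CPM (a gene's UMIs over all UMIs of the library's kept cells, scaled to 1e6). Arid1a was at 51.9 CPM in control and 20.4 in mutant cells, although the 3′ tags lie outside the deleted exons and so do not read the deletion itself. Of the neutrophil markers S100a8, S100a9, Camp and Ngp, 4 of 4 were higher in the mutant library, with a summed level of 264 CPM in control and 1982 in mutant cells. The class II markers H2-Aa, H2-Ab1 and H2-Eb1 summed to 7.07 and 51.9 CPM and the collagen and Sparc markers of stromal cells to 4.42 and 11.4. Without the cells marked by these 3 lists the log2 ratio of the summed members was 0.93, as large as with them.

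The proteasome is a barrel-shaped protease whose catalytic sites sit on 3 of its subunits. Cells exposed to interferon build it with the inducible subunits encoded by Psmb8, Psmb9 and Psmb10 in place of those encoded by Psmb5, Psmb6 and Psmb7, and add the PA28 cap, which changes the spectrum of peptides released. The TAP1-TAP2 transporter carries these peptides into the endoplasmic reticulum, tapasin (Tapbp) bridges it to empty class I molecules, ERAP1 trims the peptides to length, and NLRC5 drives transcription of class I genes and of several genes of this route.

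The genes lie in a few places of the genome (GRCm39, GENCODE M39). Chromosome 17 held 5 of them, within the MHC. Psmb9 (chr17:34400960-34406738, minus strand), Tap1 (chr17:34405996-34416199, plus), Psmb8 (chr17:34416690-34420428, plus) and Tap2 (chr17:34422501-34435829, plus) were neighbours within 34870 bases, and Tapbp was at chr17:34134873-34148267 (plus). Psme1 (chr14:55815190-55822034, plus) and Psme2 (chr14:55824895-55829173, minus) were 2860 bases apart, while Psmb10 (chr8:106662362-106665077, minus), Nlrc5 (chr8:95160984-95253900, plus) and Erap1 (chr13:74787687-74841320, plus) stood alone. Psmb9 and Tap1 overlap on opposite strands in GENCODE, whereas from their RefSeq start sites, 226 bases apart, they run away from each other without overlap. Erap1 overlaps Cast (98.6 and 114 CPM in control and mutant cells), Psme1 overlaps Emc9 (12.2 and 14.03) and Psme2 overlaps Rnf31 (8.92 and 13.02), also on opposite strands. Whether antisense reads were kept out of the counts is not given in the sources used here, so a misplaced read between such partners cannot be told apart. Psme2 also has a near-identical copy, Psme2b, counted at 2.61 and 6.15 CPM, and reads shared between the copies are uncertain.

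Promoter sequences are shown for the PA28 genes, whose ratios differed most within a role, and for the other members whose promoters held a searched motif. RefSeq promoters (GRCm38.p6 table, placed in GRCm39 by exact match) were available for 8 of the 10 members and for 2 of the 3 constitutive subunits. Each window of 300 bases, 250 before and 50 after the start site, was searched on both strands for GAAANNGAAA, the core of an interferon-stimulated response element, and for TTCNNNGAA, the core of a GAS (interferon-gamma activated site) element. The first was in 3.44% and the second in 8.30% of all 32841 promoters of the table. The first was found in 2 of the 8 members, Psme1 and Erap1, the second in 1 of 8, Psmb8, and neither in the 2 constitutive promoters. Each line gives 150 bases before and 30 from the start site, 5′ to 3′ on the gene's strand, with motif letters in capitals. The windows are chr14:55815801-55815980 for Psme1 (plus), chr14:55828529-55828708 for the farther upstream of the 2 Psme2 starts (minus), chr13:74787822-74788001 for Erap1 (plus) and chr17:34417019-34417198 for Psmb8 (plus).
Psme1: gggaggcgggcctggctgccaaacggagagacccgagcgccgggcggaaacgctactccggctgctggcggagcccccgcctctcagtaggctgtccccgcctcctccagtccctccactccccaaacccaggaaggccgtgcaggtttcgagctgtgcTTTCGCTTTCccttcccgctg
Psme2: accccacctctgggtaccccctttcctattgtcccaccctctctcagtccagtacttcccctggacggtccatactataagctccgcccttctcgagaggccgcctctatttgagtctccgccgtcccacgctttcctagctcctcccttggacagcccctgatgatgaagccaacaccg
Erap1: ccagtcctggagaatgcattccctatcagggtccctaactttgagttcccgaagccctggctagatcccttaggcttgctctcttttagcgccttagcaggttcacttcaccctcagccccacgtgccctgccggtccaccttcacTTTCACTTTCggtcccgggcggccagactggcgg
Psmb8: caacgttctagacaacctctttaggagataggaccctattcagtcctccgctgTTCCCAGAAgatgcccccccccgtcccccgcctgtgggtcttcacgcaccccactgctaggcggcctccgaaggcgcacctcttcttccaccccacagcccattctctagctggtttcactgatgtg
The Psme1 match began at base 10 counting the RefSeq start as base 1. The Erap1 match began 4 bases before the RefSeq start and the Psmb8 match 97 bases before it. The RefSeq starts are at 55815951 for Psme1, 74787972 for Erap1 and 34417169 for Psmb8. GENCODE places the canonical starts farther upstream, at 55815751, 74787687 and 34416690 in the same order. The windows of these genes thus lie within the GENCODE spans given above, and the annotations disagree on where the promoters are. These letter matches describe the windows and say nothing on binding.

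Summed over the library, all 10 members were higher in LysM-Cre;Arid1afl/fl cells, and the 3 constitutive subunits were not. The members together took 1133 CPM in control and 2159 in mutant cells (log2 ratio 0.93, 95% counting interval 0.92 to 0.94), whereas Psmb5, Psmb6 and Psmb7 together took 1131 and 1056. Members at 2-fold or more numbered 6 of 10, namely Psmb9, Psme1, Tap1, Tapbp, Erap1 and Nlrc5. Of the 5219 genes whose mean over the 2 libraries reached 20 CPM, 5.65% were 2-fold or more higher in the mutant. That minimum was met by 9 members, 5 of them past 2-fold, with Nlrc5 below it in both libraries and Tap2 and Erap1 below it in control cells alone. The median log2 ratio of all these genes was 0.022.

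The inducible catalytic subunits were each higher in the mutant library. Psmb8, which encodes the inducible partner of the Psmb5 product, was at 269 CPM in control and 451 in mutant cells (log2 ratio 0.74, 0.73 to 0.76). Psmb9, the partner of Psmb6, was at 46.0 and 107, a log2 ratio of 1.22 (1.18 to 1.26). Psmb10, the partner of Psmb7, was at 78.8 and 155, a log2 ratio of 0.98 (0.94 to 1.01) whose interval spans the 2-fold line. The constitutive subunits went the other way or stayed close to 0. Psmb5 was at 491 and 476 CPM (log2 ratio -0.044), Psmb6 at 398 and 384 (-0.055) and Psmb7 at 241 and 196 (-0.30, -0.32 to -0.28).

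The PA28 subunits form a common ring, and their transcripts had different ratios. Psme1 was at 211 CPM in control and 468 in mutant cells (log2 ratio 1.15, 1.13 to 1.17). Psme2 was at 300.2 and 412, a log2 ratio of 0.46 (0.44 to 0.47), the smallest among the 10 members. In the genome-wide order 4.41% of the 5219 genes had a larger ratio than Psme1 and 17.1% a larger one than Psme2.

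Of the transport and loading genes, Tapbp had the largest ratio. It was at 166 CPM in control and 430.0 in mutant cells (log2 ratio 1.37, 1.35 to 1.39), and 2.87% of the 5219 genes had a larger one. Tap1 was at 22.7 and 53.4 (log2 ratio 1.23, 1.18 to 1.29) and Tap2, whose product pairs with that of Tap1, at 17.8 and 31.8 (0.83, 0.77 to 0.90). Erap1 was at 16.2 and 38.3 CPM, a log2 ratio of 1.24 (1.17 to 1.31). Nlrc5 was the scarcest member, with 763 UMIs in the whole control library and 1588 in the mutant, or 4.66 and 12.1 CPM (2.59-fold, 2.37 to 2.83).

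**Figure D1:**
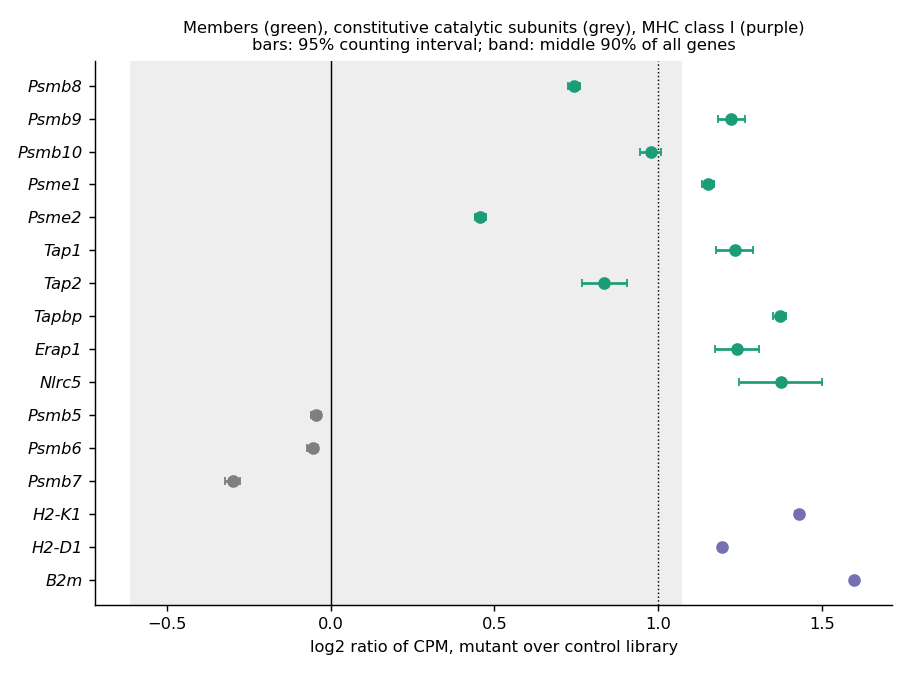
Log2 ratio of CPM, mutant over control library, for the 10 members (green), the 3 constitutive catalytic subunits (grey) and MHC class I genes (purple), 1 library per genotype. Bars are 95% counting intervals, the dotted line marks 2-fold and the band spans the middle 90% of the 5219 genes that reached a mean of 20 CPM. All members lie right of 0 from Psme2 (0.46) to Nlrc5 (1.37), and the constitutive subunits lie at or left of 0.

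Other proteasome genes lay closer to equal levels in the 2 libraries. Among the other subunits of the 20S core, 0 of the 11 at the minimum level reached 2-fold, from Psma3 (log2 ratio -0.21) to Psma6 (0.29), with a median of 0.049 that falls below 0 when mitochondrial and ribosomal protein genes are left out of the totals (-0.061) and with trimmed-mean (-0.015) or median-of-ratios scaling (-0.041). Of the 19S regulatory particle, 0 of 21 subunits reached it, from the non-ATPase subunit Psmd7 (-0.47) to the ATPase Psmc3 (0.12), with 16 lower in the mutant. Of the other activators, inhibitor and assembly factors, 0 of 7 did, from the assembly chaperone Psmg3 (-0.34) to the activator Psme4 (0.39). The maturation factor Pomp, used by both kinds of core, was at 403 and 400.5 CPM.

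Partners of the loading step differed among themselves. The chaperones Canx, Calr, Pdia3 and Hspa5 were close to equal, with 0 of 4 past 2-fold and log2 ratios from 0.015 for Calr, which holds class I molecules that await a peptide, to 0.38 for the general chaperone Hspa5. Tapbpl, a tapasin relative that edits peptides, fell short of the minimum level with 4.88 and 14.9 CPM, a log2 ratio of 1.61 (1.495 to 1.735), and was named after its values were seen. Of the other peptidases 0 of 5 reached 2-fold, from the cytosolic Lap3 (-0.56) to Lnpep (0.66), the endosomal relative of ERAP1. Transcripts of the class I molecules that receive the peptides were higher in the mutant. Of the MHC class I genes 3 of 3 were past 2-fold, beside 5.65% of the 5219 genes. H2-K1 was at 571 and 1538 CPM, H2-D1 at 957 and 2190 and the light chain B2m at 1168 and 3532.

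Among the 12 regulators of the interferon and NLRC5 routes at the minimum level, the highest ratio was that of Stat2, which acts downstream of the type I interferon receptor, at 9.90 and 53.7 CPM (log2 ratio 2.44). The lowest of the 12 was Rfxap, a subunit of the X-box factor that works with NLRC5, at -0.21. Ifng was counted at 0 UMIs in both libraries, which allows up to 0.018 and 0.023 CPM. Of 15 interferon-stimulated genes that include no member, 15 were 2-fold or more higher, beside 5.65% of the 5219 genes. Their summed levels were 1196 and 4634 CPM. The list was chosen with earlier results of these data known, so this count is a description. The part of interferon in the members' levels was not tested.

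The mix of inducible and constitutive transcripts was then set side by side within each catalytic pair. These shares count 3′ UMIs of different genes, so they are compared between libraries and are not shares of protein. Psmb8 made up 35.4% of the UMIs of Psmb8 and Psmb5 in control and 48.6% in mutant cells, a difference of 13.2 points (12.8 to 13.6). Psmb9 made up 10.3% and 21.9% of its pair with Psmb6, a difference of 11.5 points. Psmb10 made up 24.6% and 44.1% of its pair with Psmb7, 19.5 points and the widest of the 3 in points. Differences in points depend on the starting share, and Psmb7 itself was lower in the mutant (log2 ratio -0.30). Over the 3 pairs the inducible share was 25.8% in control (25.7 to 26.0) and 40.3% in mutant cells (40.1 to 40.5).

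To see where in the culture the members differed, cells with at least 5000 UMIs were thinned to 5000 and placed in 4 states by markers named in the study. The OC gate took 3 or more UMIs summed over Acp5, Ctsk, Dcstamp and Mmp9, and the cycling gate 3 or more over Aurka, Cdk1, Mki67 and Top2a. Neither gate was passed by 3305 control and 3332 mutant cells, cycling alone by 2183 and 1667, OC alone by 337 and 152 and both by 250 and 49. The gates rest on genes that themselves differ between the libraries, so a state need not hold the same cells in each.

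All 10 members were higher in mutant cells in each of the 4 states. In cells of neither gate the summed members were at 1187 and 2199 CPM, a log2 ratio of 0.89, and 5 of the 9 members at the minimum level were 2-fold or more higher beside 4.90% of 5061 genes. In cycling cells they were at 1084 and 2066 (0.93), with 5 of 9 beside 5.34% of 5353 genes. In OC-gated cells they were at 1115 and 2518 (1.17), with 6 of 9 beside 9.94% of 5100 genes. In cells of both gates they were at 1005 and 2179 (1.12), with 6 of 9 beside 9.16% of 5373 genes. Nlrc5, below that level in each state, was past 2-fold in all 4. In cells of both gates it rested on 24 control and 11 mutant UMIs, 3.12-fold with an interval (1.38 to 6.62) that spans the 2-fold line.

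The summed level lay between 1005 and 1187 CPM over the control states and between 2066 and 2518 CPM over the mutant ones, and some members, Nlrc5, Tap2 and Erap1 among them, varied more widely in control cells. In control cells Nlrc5 was at 4.87 CPM in neither gate and 1.56 in the OC gate, from 15 UMIs in 337 cells, while in the mutant it was at 11.2 and 13.8. Erap1 was lower in the OC gate alone than in neither gate, at 11.4 against 16.9 CPM in control and 29.0 against 38.98 in mutant cells. In cells of both gates Erap1 was at 10.7 CPM in control and 40.8 in mutant cells, so the mutant decrease did not extend to them. Tap2 was the member with the least difference between libraries in the OC gate, at 31.0 and 38.2 CPM (log2 ratio 0.30, 0.00096 to 0.59). Control cells there carried more of it than in neither gate (17.5). Tap1 kept to 22.4 and 22.9 CPM in these 2 control states. In the mutant library the step from neither gate to the OC gate was alike for both chains, from 47.4 to 57.7 CPM for Tap1 (log2 ratio 0.28, 0.077 to 0.48) and from 31.2 to 38.2 for Tap2 (0.29, 0.038 to 0.54).

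Tapbp was lower in the OC gate than in neither gate of the control library. It was at 178 CPM in neither gate and 135 in the OC gate of the control library, and at 441 and 437 in the mutant, so that its log2 ratio between libraries was 1.70 (1.59 to 1.80) in OC-gated cells. Psme1 and Psme2 were at 558 and 566 CPM in OC-gated mutant cells, the highest of the 4 states for each, against 194 and 308 in OC-gated control cells.

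**Figure D2:**
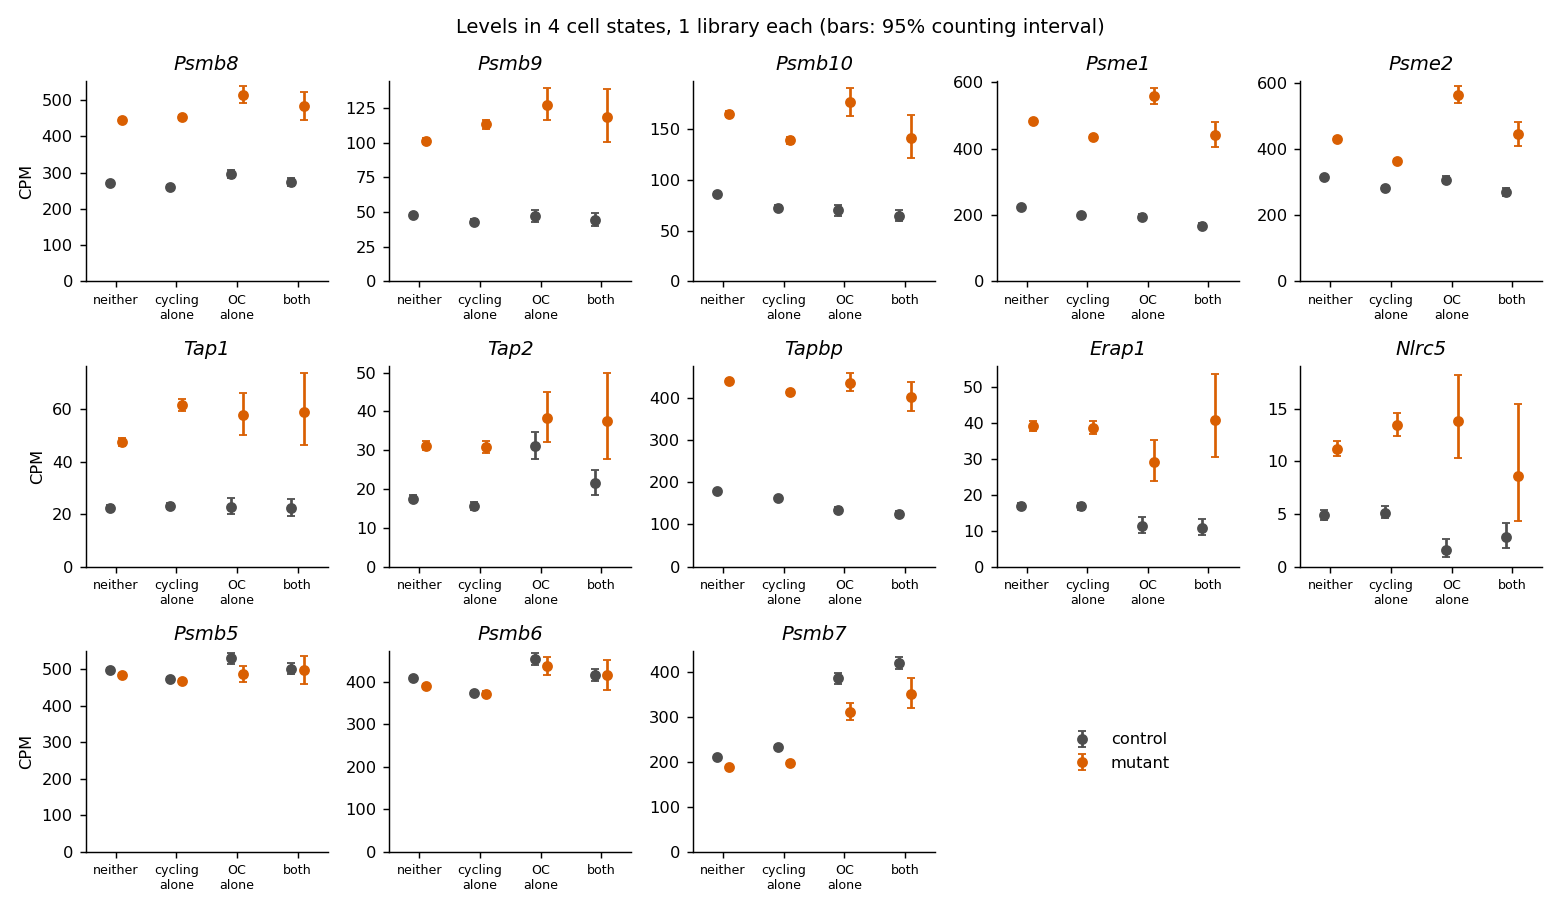
CPM of each member and each constitutive catalytic subunit in 4 cell states, control (grey) and mutant (orange), 1 library each, with 95% counting intervals and every axis from 0. Mutant points lie above control points for all 10 members in each state, and Psmb7 is the gene with the clearest step up in both OC-gated states.

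The constitutive reference was not level across states. Psmb7 was at 211 CPM in neither gate and 387 in the OC gate of the control library and at 189 and 313 in the mutant, log2 differences of 0.87 and 0.73 within a library. Psmb5 (499 and 531 in control) and Psmb6 (410.1 and 453) moved far less. Psmb10 itself was lower than in neither gate (86.1 CPM) in the other control states, at 72.5 in cycling, 69.8 in OC-gated and 64.4 in cells of both gates. In the mutant it was at 164 CPM in neither gate, 139 in cycling, 176 in OC-gated and 141 in cells of both gates. The inducible share of the Psmb10 and Psmb7 pair was 29.0% in neither gate, 23.7% in cycling, 15.3% in OC-gated and 13.3% in cells of both gates of the control library. In the mutant it was 46.5%, 41.2%, 36.03% and 28.6% in the same order. The share of Psmb8 with Psmb5 stayed between 35.3% and 35.7% across the 4 control states and between 48.0% and 51.4% across the mutant ones.

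**Figure D3:**
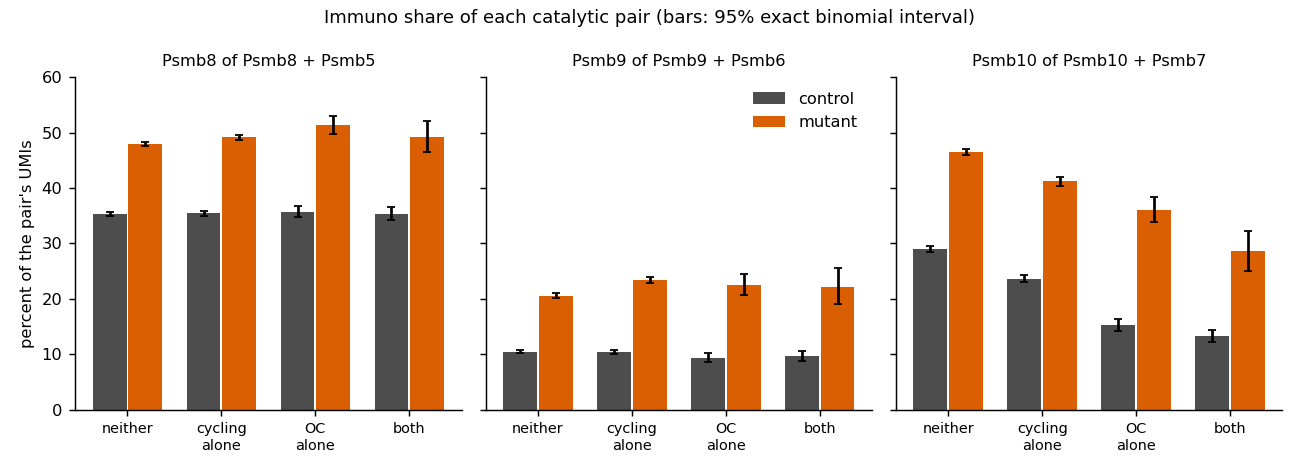
Percent of each catalytic pair's UMIs that came from the inducible gene in 4 cell states, control (grey) and mutant (orange), with 95% exact binomial intervals. Shares are higher in the mutant for each pair and state, and that of Psmb10 falls from neither gate (29.0% and 46.5%) to both gates (13.3% and 28.6%) in each library.

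Over single cells the difference was spread across most of the population. At 5000 UMIs per cell the median of the summed members was 5 UMIs in 6101 control and 10 UMIs in 5312 mutant cells, with 5th to 95th percentiles of 2 to 11 and of 5 to 20. Of mutant cells 90.5% exceeded the control median and 49.3% exceeded the control 90th percentile of 10 UMIs, as did 6.57% of control cells. The summed constitutive subunits had a median of 5 UMIs in both libraries, with means of 5.64 in control and 5.16 in mutant cells. The share above the 90th percentile depends on the depth, since it was 41.2% on unthinned counts.

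The share of cells with at least 1 UMI was higher in the mutant library for each member. For Tapbp it was 55.0% of control (exact binomial interval 53.7 to 56.2) and 85.7% of mutant cells (84.8 to 86.7). For Psme1 it was 64.2% and 88.6%, for Psmb9 20.98% and 40.9%, for Tap2 8.59% and 15.4%, and for Nlrc5 2.34% and 6.55%. The 75 neutrophil-marked mutant cells, with a median depth of 10828 UMIs, had a Tapbp UMI in 30 and a Nlrc5 UMI in 2 at the same thinned depth. A cell without a UMI at this depth need not lack the transcript. For Psmb5 the share was 89.8% and 88.1%.

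**Figure D4:**
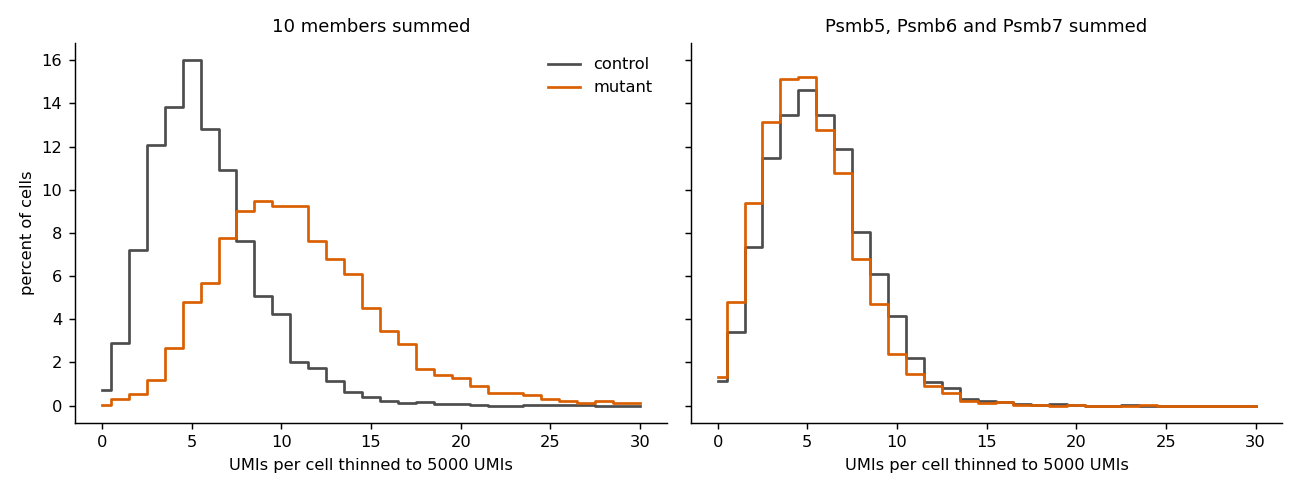
Percent of cells (vertical) by number of UMIs per cell thinned to 5000 (horizontal, shown to 30), for the 10 members summed and for Psmb5, Psmb6 and Psmb7 summed, in control (grey) and mutant (orange) cells. The member curve is centred on 5 UMIs in control and 10 in mutant cells. The constitutive curves both have medians of 5, that of the mutant lying slightly to the left (means 5.64 in control and 5.16 in mutant cells).

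Within each library the members also varied with the interferon-stimulated genes. Cells were ranked by the summed UMIs of the 15 interferon-stimulated genes at 5000 UMIs and split into 4 equal groups. From the lowest to the highest group the summed members were at 947, 1041, 1150 and 1405 CPM in the control library and at 1764, 1999, 2208 and 2711 in the mutant. In the sum the lowest group of the mutant stood above the highest of the control library, though not for Psme2 (337 against 350 CPM). The ranking was made within each library, so these groups differ in interferon-stimulated UMIs. The lowest mutant group had a median of 13 (0 to 16) and the highest control group 10 (8 to 214). For the summed members the log2 ratio of highest to lowest group was 0.57 in control and 0.62 in mutant cells. The groups are ranges of cells and not types.

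The members differed in how closely they followed this ranking. In the control library the steepest were Nlrc5 (log2 ratio of highest to lowest group 1.32) and Tap1 (1.15), and the flattest Tap2 (0.39). Nlrc5 was scarce there, at 2.95 CPM in the lowest and 7.36 in the highest group. In the mutant library they ran from Psmb9 (0.97) and Tap1 (0.93) down to Erap1 (0.18, 0.061 to 0.30). Erap1 was at 35.2 and 39.8 CPM in the lowest and highest mutant groups against 13.9 and 18.8 in the control groups, so its difference between libraries was far larger than that along the ranking. Psmb5 did not follow the ranking (-0.0099 in control and -0.013 in mutant cells), and Psmb7 was lower in the highest group of the control library (-0.46).

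**Figure D5:**
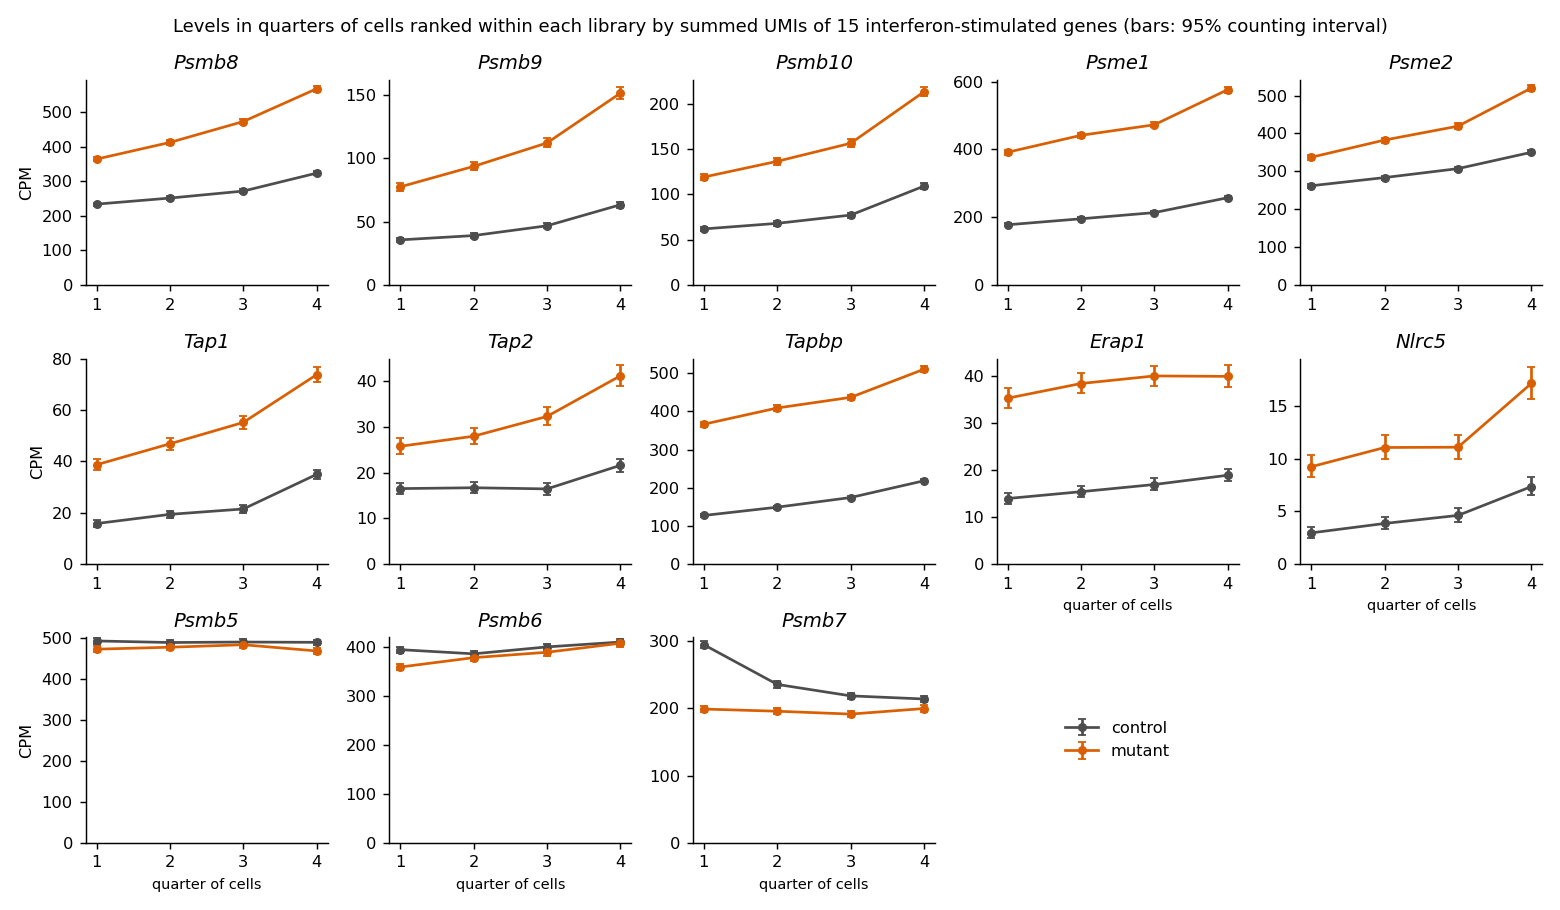
CPM of each member and constitutive subunit in 4 equal groups of cells ranked within each library by interferon-stimulated UMIs, control (grey) and mutant (orange), with 95% counting intervals and every axis from 0. The mutant line lies above the control line for each member, the lines of most members slope upward, and that of Erap1 in the mutant is nearly flat (35.2 to 39.8).

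Cells with equal interferon-stimulated UMIs were then compared between libraries, a comparison added after the data were seen. The range of 21 to 40 such UMIs held 133 of 6101 control and 2558 of 5312 mutant cells. Among the UMIs not drawn for the ranking the 15 genes were at 4859 and 5029 CPM, so their sum was close there too. The match is on this sum alone, over the same genes in the same cells. The control cells also lay above the 95th percentile of their library, 15 such UMIs. In these cells the summed members were at 1921 and 2297 CPM, a log2 ratio of 0.26 (0.22 to 0.29), beside 0.93 over all cells. The part of interferon in this was not tested. Tapbp remained at 299 and 453 (0.60, 0.51 to 0.69), Psme1 at 338 and 494 (0.55, 0.46 to 0.64) and Erap1 at 24.5 and 39.7 (0.70, 0.38 to 1.03). Psme2, Tap1, Tap2, Psmb10 and Nlrc5 had intervals that span 0, from -0.17 for Tap1 to 0.070 for Tap2. Psmb8 (0.19) and Psmb9 (0.24) lay between. In the 36 control and 315 mutant cells above 40 such UMIs, the undrawn UMIs put the 15 genes at 12110 and 11567 CPM, and the summed members were at 2467 and 3633 CPM, a log2 ratio of 0.56 (0.50 to 0.62). The size of the difference at equal interferon-stimulated UMIs thus varied with the range compared. Tapbp (0.98), Psme1 (0.92), Psmb9 (0.73), Erap1 (0.60), Psme2 (0.55) and Psmb8 (0.37) were higher in the mutant there, with counting intervals above 0. That of Erap1 began at 0.030. The intervals of Tap1 (-0.17), Nlrc5 (-0.16), Psmb10 (0.057) and Tap2 (0.19) span 0. None of these intervals covers the spread among the 36 control cells or between libraries. From 4 to 20 such UMIs the undrawn UMIs differed between the libraries, for example 2313 and 3584 CPM from 11 to 20, and below 4 the groups of equal UMIs held 5 to 26 mutant cells, so those cells are not compared.

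The genes whose counts were most like the summed members across cells were found by Pearson correlation over cells at 5000 UMIs, among 5210 genes that reached a mean of 20 CPM. In 6101 control cells they were Isg15 (0.27), Bst2 (0.22), Irf7 (0.21), Ifitm3 (0.20) and Ifit3 (0.19). In 5312 mutant cells they were Isg15 (0.37), H2-K1 (0.34), B2m (0.31), Cst3 (0.31) and H2-D1 (0.30). The cells of a library share its preparation and depth, the counts are sparse and the coefficients are small, so the lists are descriptions. Psmb5 had coefficients of 0.0073 and -0.0053.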

How the data were processed

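The labels describe droplet libraries of bone marrow-derived monocytes (10x Genomics), prepared per the study's methods with a 3′ kit. The deposited matrices hold UMI counts per gene and cell that the authors made with Cell Ranger, version 6.1.0 per the file headers, on GRCm39. Counts were summed per library over cells with at least 500 genes and at most 10% mitochondrial UMIs, 163618835 and 131469887 UMIs in all, and divided by these totals. The 0 members with a repeated symbol needed no choice between rows. Members and lists were chosen with earlier results of these data known. Intervals are exact (Poisson, conditional binomial for ratios and Clopper-Pearson for shares, at 95%), differences of shares use the square-and-add method, and a count of 0 allows 3 counts. They cover counting error alone.

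Cells were thinned without replacement to 5000 UMIs, which left out 168 control and 351 mutant cells. Cells with at least 50 neutrophil or 10 class II marker UMIs, or at least 3 unthinned stromal marker UMIs that made up 1000 CPM, were set aside before gating. They were 17 and 75, 6 and 34, and 3 and 3 cells. Doublets were kept, and an alternative left out the cells with the highest scores against simulated doublets (333 and 275). The genes named were all members and their constitutive partners, the MHC class I genes, from each related list those past 2-fold and otherwise the highest and lowest, the 5 genes most correlated with the summed members in each library, and Arid1a. Pomp, Canx, Pdia3, Tapbpl, Ifng and Ifnb1 fall outside that rule and were named after their values were seen. Tools were Python 3.11.15 with scipy 1.17.1, numpy 2.4.6 and scikit-learn 1.9.0, and edgeR 4.0.16 for the trimmed-mean scaling alternative. The ratio code was tested on simulated data. A regulator that the naming rule picks is not reported here. Of the table's identifiers 31977 of 32544 matched GENCODE M39.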

Additional observations from a re-analysis of the deposited data

How the results depend on the processing

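No paired analysis was possible because each genotype had 1 library. Every member stayed higher in the mutant library in 8 of 8 alternative scalings and cell choices, and members at 2-fold or more numbered 6 or 7. The log2 ratio of the summed members ran from 0.82, with mitochondrial and ribosomal protein genes left out of the totals, to 1.03 relative to Psmb5, Psmb6 and Psmb7. Leaving those genes out moved the median of all genes from 0.022 to -0.081. With a minimum of 5 CPM, or of 1 UMI, the proteasome, loading and peptidase lists held 1 gene past 2-fold, in place of 0. Weighting every cell alike gave a difference of 15.1 points in the inducible share, in place of 14.5. The share of mutant cells above the control 90th percentile was 43.6% at 2000, 63.7% at 10000 UMIs per cell and 41.2% unthinned, a step that shifts with whole UMIs. Along the interferon ranking the log2 ratio of the summed members ran from 0.48 at 2000 to 0.63 at 10000 UMIs in control cells. In mutant cells it ran from 0.52 to 0.65 at the same depths. Nlrc5 in OC-gated control cells rests on 15 UMIs, and cells of both gates numbered 49 in the mutant library. With 1 library per genotype, batch, culture and genotype cannot be told apart.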

Other observations

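Rare cell classes of the culture differed from the gated cells in the same genes. The 34 mutant cells with class II markers, which present peptides to helper T cells, held the summed members at 3387 CPM and an inducible share of 64.1% over the 3 catalytic pairs (exact binomial interval 61.0 to 67.2), against 40.1% in mutant cells of neither gate. The 6 such control cells were at 2467 CPM and 48.6%. The 75 neutrophil-marked mutant cells held the summed members at 1351 CPM, and Tapbp was at 216 CPM against 441 in neither gate. Psmb9 made up 41.4% of its pair with Psmb6 against 20.6% in neither gate. In that pair Psmb6 was lower, at 195 against 391 CPM, and Psmb9 higher, at 138 against 101. The 17 neutrophil-marked control cells had a share of 35.6% (23.6 to 49.1) against 10.5% in neither gate. These classes had median depths from 8616 to 12921 UMIs, below the gated cells.

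Ifnb1, which encodes interferon beta, was counted in 32 mutant cells and 1 control cell. In these mutant cells the summed members were at 5078 CPM against 2143 in the other mutant cells, and the 3 constitutive subunits at 986 against 1057. Tap2 had the widest step, at 148 against 31.1 CPM (log2 ratio 2.25, 1.96 to 2.53). Erap1 was at 42.3 against 38.3 (0.14, -0.43 to 0.66), an interval that spans 0. Cells of the mutant library with an Arid1a UMI (468) had the summed members at 2225 CPM, close to the 2155 of the 4732 without. An Arid1a UMI does not read the deletion, and 4751 control cells also had none. This split therefore cannot separate cells with and without the deletion. Both comparisons were added after the data were seen and lie within a single library.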
